A study of Mus musculus with 9 samples.

Results

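Potassium channels are the membrane proteins that carry potassium out of excitable cells, and the genes described here are those whose symbol in the array annotation starts with Kcn followed by letters and a digit. Each was read from probe sets assigned to exactly 1 gene, and where a gene had more than 1, the brightest on average stood for it. This gave 89 genes, measured by 96 probe sets, of 22180 genes in all. The RNA came from 9 skeletal muscles, each on 1 GeneChip whole-transcript array, and the mice were C57BL/6J males of 12 weeks. Positional memory and the homeobox gene Hoxa10 are named in the series title. From the hindlimb came soleus, gastrocnemius, tibialis anterior and rectus femoris (n = 4), from the shoulder and forelimb trapezius, supraspinatus and triceps (n = 3), and from the head masseter and digastric (n = 2). All mice were of 1 sex, age and inbred strain, and no treatment or genetic change is named. The labels do not say whether 1 animal or several gave the RNA of an array. The regions rest on general anatomy, so every SD below is a spread between different muscles, and muscle, animal and array cannot be told apart in it.

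In a resting muscle fibre, potassium and chloride channels hold the membrane near its resting potential, and voltage-gated potassium channels end each action potential. Inward rectifiers of the Kcnj group carry the resting current, and their ATP-sensitive members link it to the energy state of the cell. Calcium-activated channels of the Kcnm and Kcnn groups respond to the calcium that drives contraction. Auxiliary subunits of the Kcnab, Kcne, Kcnip and Kcnmb groups form no pore of their own and change how pore subunits open and where they sit. Whole muscle also holds vessels, nerve and connective tissue, and in such bulk RNA fewer cells of a type and less RNA per cell cannot be told apart.

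The arrays carried the label tissue. The mean log2 level of 8 skeletal muscle genes such as Acta1 and Ckm lay between 11.62 and 12.17 in all 9 arrays. Slow fibre genes averaged 9.86 in soleus, the classic slow muscle of the mouse hindlimb, against 4.45 to 6.86 in the other 8 muscles. The arrays of rectus femoris, gastrocnemius and triceps had a narrower spread of values, with an SD over probe sets from 1.92 to 1.96, against 2.03 to 2.08 in the other 6 arrays. The main hindlimb minus head differences are therefore also given for those 6 arrays.

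Of the 89 genes, 31 had a mean log2 level of at least 4, the level under which a gene was treated as near background, and 58 lay under it. This was 34.8% of the potassium channel genes, against 47.8% of all genes. The brightness of a probe set depends on its sequence, so the order of 2 genes on the array is no order of their transcript amounts. The genes just above the threshold were Kcnk15 and Kcng1, both with a mean of 4.01, and those just below were Kcnn4 at 3.94, Kcng2 at 3.92 and Kcnj9 at 3.86. At a threshold of 5 the number fell to 14. Most genes near background also varied little, with a range under 1 log2 unit over the 9 arrays in 43 of 58, and none of these 58 genes reached 5 on any array.

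**Figure D1:**
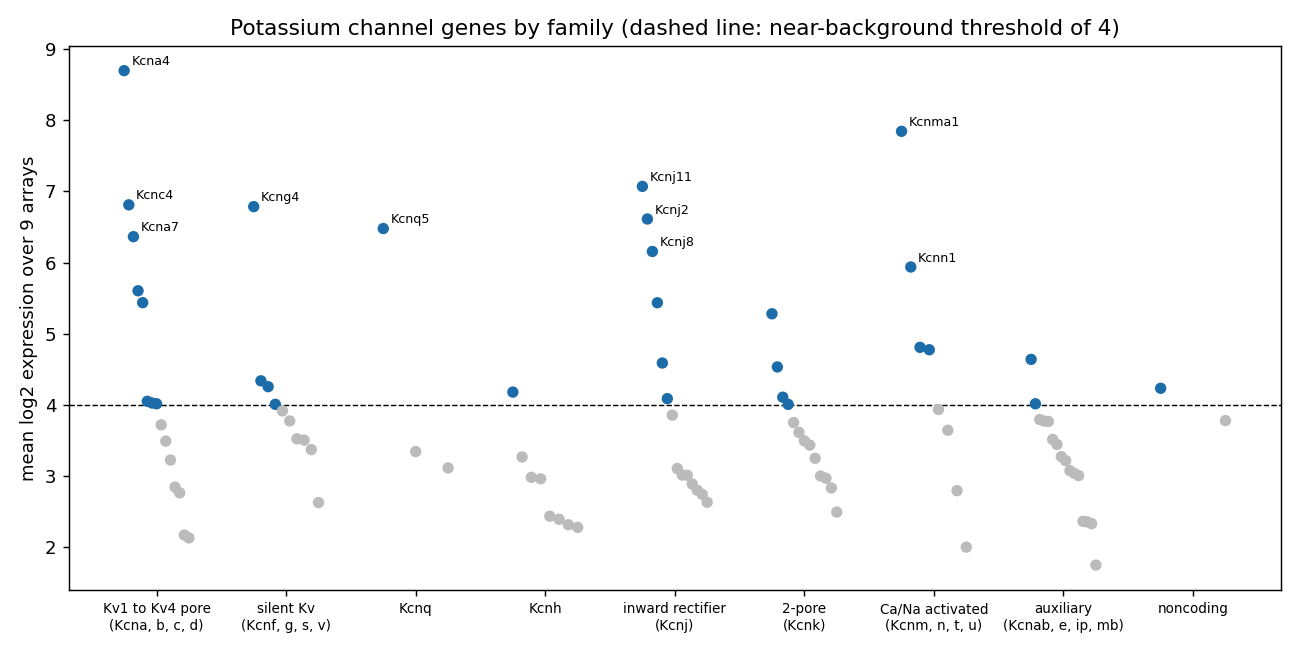
Mean log2 expression over 9 arrays of the 89 genes (y axis), 1 point per gene, by channel family (x axis), with blue points at or above the dashed line at 4 and grey points below it. The Kcna to Kcnd, silent subunit, Kcnq, inward rectifier and calcium- and sodium-activated families hold genes above 6, while 2 of 16 auxiliary genes are above the line.

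The families were unequally represented. Among voltage-gated pore genes of the Kcna, Kcnb, Kcnc and Kcnd groups, 8 of 15 measured genes were at 4 or above, led by Kcna4, Kcnc4 and Kcna7. Of the silent subunits (Kcnf, Kcng, Kcns, Kcnv), which form channels only with partners from other groups, 4 of 10 were above the threshold, as was 1 of 3 Kcnq genes and 1 of 8 Kcnh genes. Among inward rectifiers 6 of 14, among 2-pore leak channels (Kcnk) 4 of 13 and among calcium- and sodium-activated channels 4 of 8 were above it. Only 2 of 16 auxiliary genes were, Kcne1l and Kcnip3, and Kcnmb1, the smooth muscle auxiliary subunit of the Kcnma1 channel, averaged 3.79. The pattern also matched 2 noncoding transcripts, Kcnq1ot1 at 4.23, an imprinted RNA antisense to Kcnq1, and Kcnd3os at 3.78.

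Soleus stood apart from the other muscles for 4 genes, 3 of them higher and 1 lower. The A-type channel gene Kcna4, the large-conductance calcium-activated channel gene Kcnma1 and the auxiliary subunit gene Kcne1l (also named Kcne5) were higher in soleus than in the 8 other arrays, and Kcnc4, a fast voltage-gated channel gene, was lower. Each lay at least 1 log2 unit from the mean of the 8 others and outside their range, as did 1.92% of all genes and 4 of the 89 genes, or 4.49%. These 4 genes all had a mean of at least 4, and the share of all genes at that level was not computed. Soleus is 1 array, so this is a description without a test. The promoters of these 4 genes, from RefSeq (GRCm38.p6), are printed from 250 bases before to 50 after the annotated start, since their levels moved together or apart in the same muscle. Capitals mark every CANNTG, the E-box bound by myogenic factors, a motif that reads the same on both strands.
Kcna4, chr2:107290339-107290638, plus strand: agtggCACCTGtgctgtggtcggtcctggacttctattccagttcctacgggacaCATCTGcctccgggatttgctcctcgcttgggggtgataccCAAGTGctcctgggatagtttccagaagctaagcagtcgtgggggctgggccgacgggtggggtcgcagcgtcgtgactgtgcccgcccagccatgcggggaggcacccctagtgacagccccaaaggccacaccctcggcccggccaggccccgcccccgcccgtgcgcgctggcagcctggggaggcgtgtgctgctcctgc
Kcnma1, chr14:24004156-24004455, minus strand: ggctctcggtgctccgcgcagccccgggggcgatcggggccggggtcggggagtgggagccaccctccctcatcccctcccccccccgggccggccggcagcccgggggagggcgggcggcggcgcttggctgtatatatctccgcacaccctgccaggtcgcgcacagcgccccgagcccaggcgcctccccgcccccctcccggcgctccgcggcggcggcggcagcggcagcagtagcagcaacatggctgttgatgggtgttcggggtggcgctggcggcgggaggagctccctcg
Kcne1l, chrX:142306149-142306448, minus strand: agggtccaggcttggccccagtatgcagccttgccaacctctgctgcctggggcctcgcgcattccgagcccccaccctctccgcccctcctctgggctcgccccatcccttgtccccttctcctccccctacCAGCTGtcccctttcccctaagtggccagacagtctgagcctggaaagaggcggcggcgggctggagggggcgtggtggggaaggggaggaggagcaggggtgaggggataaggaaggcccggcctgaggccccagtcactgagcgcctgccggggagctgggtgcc
Kcnc4, chr3:107458849-107459148, minus strand: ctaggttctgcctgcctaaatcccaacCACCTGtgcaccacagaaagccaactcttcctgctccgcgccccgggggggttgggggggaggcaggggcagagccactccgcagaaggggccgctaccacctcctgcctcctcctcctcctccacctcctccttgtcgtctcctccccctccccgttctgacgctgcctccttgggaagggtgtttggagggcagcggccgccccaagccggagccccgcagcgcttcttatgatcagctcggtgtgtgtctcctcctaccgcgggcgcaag

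The Kcna4 window held 3 E-boxes, those of Kcne1l and Kcnc4 held 1 each and that of Kcnma1 held 0. Of all 32851 RefSeq windows of this length, 72.3% held at least 1. The Kcne1l site was of the form CAGCTG, which 16.3% of all windows held. GGAAA, the core bound by NFAT factors, was found on either strand 1 time in the Kcna4 window and 2 times in that of Kcne1l, and in 61.3% of all windows. The MEF2 consensus was found in none of the 4 windows and in 3.2% of all. Such matches describe letters only. Of the 31 genes at 4 or above, 25 had windows in the table.

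Kcna4 encodes an A-type pore subunit, which inactivates after it opens. Its log2 level was 7.76 in rectus femoris, 8.18 in tibialis anterior, 9.65 in soleus and 8.30 in gastrocnemius, then 9.36 in trapezius, 8.89 in supraspinatus and 8.31 in triceps, and 8.70 in masseter and 9.12 in digastric. Soleus was highest and trapezius next, and the 3 regions overlapped. Soleus exceeded the mean of the 8 others, 8.58 ± 0.53 (SD, n = 8), by 1.07. The second probe set of Kcna4 lay near background in every muscle, with a mean of 2.29, so these values rest on 1 probe set.

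Kcnma1 encodes the pore of the BK channel, opened by calcium and voltage together. It was at 7.03, 7.18, 9.05 and 7.32 in rectus femoris, tibialis anterior, soleus and gastrocnemius, at 8.16, 7.96 and 7.23 in trapezius, supraspinatus and triceps, and at 8.19 and 8.47 in masseter and digastric. Both head arrays lay above all other arrays except soleus, and the other 3 hindlimb arrays and triceps were lowest. The soleus value exceeded the mean of the 8 others, 7.69 ± 0.56 (SD, n = 8), by 1.36. A second Kcnma1 probe set averaged 3.18 and showed no such difference (-0.02). Lrrc52, which encodes an auxiliary gamma subunit of the same channel, reached 7.58 in soleus, where the 8 other arrays lay between 4.04 and 5.71. The related subunit genes Lrrc26 and Lrrc55 were near background, with means of 3.80 and 3.18.

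Kcne1l, on the X chromosome, encodes a single-pass subunit known to inhibit Kcnq1 channels. In the hindlimb it was at 4.77 in rectus femoris, 4.75 in tibialis anterior, 5.88 in soleus and 4.95 in gastrocnemius, and the shoulder and forelimb values were 4.86, 4.89 and 4.64. The head values were 3.39 in masseter and 3.64 in digastric. All 7 limb and shoulder arrays were above both head arrays, which lay near background. Kcnq1 itself averaged 3.34 and was near background in every muscle.

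Kcnc4 encodes a fast-activating channel of fast fibres that works with the auxiliary subunit gene Kcne3. It was at 7.36, 7.91, 5.18 and 6.65 in rectus femoris, tibialis anterior, soleus and gastrocnemius, at 6.90, 7.60 and 7.39 in trapezius, supraspinatus and triceps, and at 6.05 and 6.25 in masseter and digastric. Soleus was lowest, 1.83 below the mean of the 8 others, 7.01 ± 0.66 (SD, n = 8), and the head arrays came next. Its relative Kcnc1 was also lowest in soleus, at 4.91 against 5.33 to 6.02 in the 8 other arrays. Kcne3 had a mean of 3.52.

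Markers of fibre type and of vessel cells were set beside these soleus differences. All 10 slow fibre genes were higher in soleus than in each of the 8 other arrays, and 8 of 10 fast fibre genes were lower. Smooth muscle and pericyte markers averaged 6.27 in soleus against 5.75 to 6.07 elsewhere, with 4 of 9 markers above all 8 other arrays and 1 below them. Endothelial markers averaged 6.80 in soleus and from 5.83 to 6.86 elsewhere, with 4 of 10 above all other arrays. In masseter and digastric, slow fibre means were the lowest, at 4.45 and 4.85, and endothelial means were 6.64 and 6.86. Kcnma1 was at 8.19 and 8.47 in these 2 arrays, and Kcnc4 at 6.05 and 6.25. No marker value was at 0, which says little, as the lowest value of any probe set on these arrays was 0.118. The part of fibre type or of vessel cells in these differences was not tested.

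Kcng4 encodes a silent subunit, which forms no channel on its own. It was at 7.26, 7.17, 5.79 and 6.67 in rectus femoris, tibialis anterior, soleus and gastrocnemius, at 5.49, 7.01 and 7.31 in trapezius, supraspinatus and triceps, and at 7.71 and 6.67 in masseter and digastric. Trapezius and soleus were the lowest arrays and masseter the highest. Kcng4, Kcnma1, Kcnc4 and Kcne1l were the genes with a range of at least 2 log2 units over the 9 arrays, 4 of 89 or 4.49%, against 2.91% of all genes. Among genes at 4 or above the share was 4 of 31, or 12.9%, against 4.72%, which is a description of genes kept for their level. Without the soleus array 1 of them, Kcng4, still had that range. A range under 1 log2 unit was found for 17 of the 31, or 54.8%, against 63.4% of all genes with a mean of at least 4. The leak channel gene Kcnk6 had the smallest spread of the genes at 5 or above, 5.28 ± 0.10 (SD, n = 9).

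**Figure D2:**
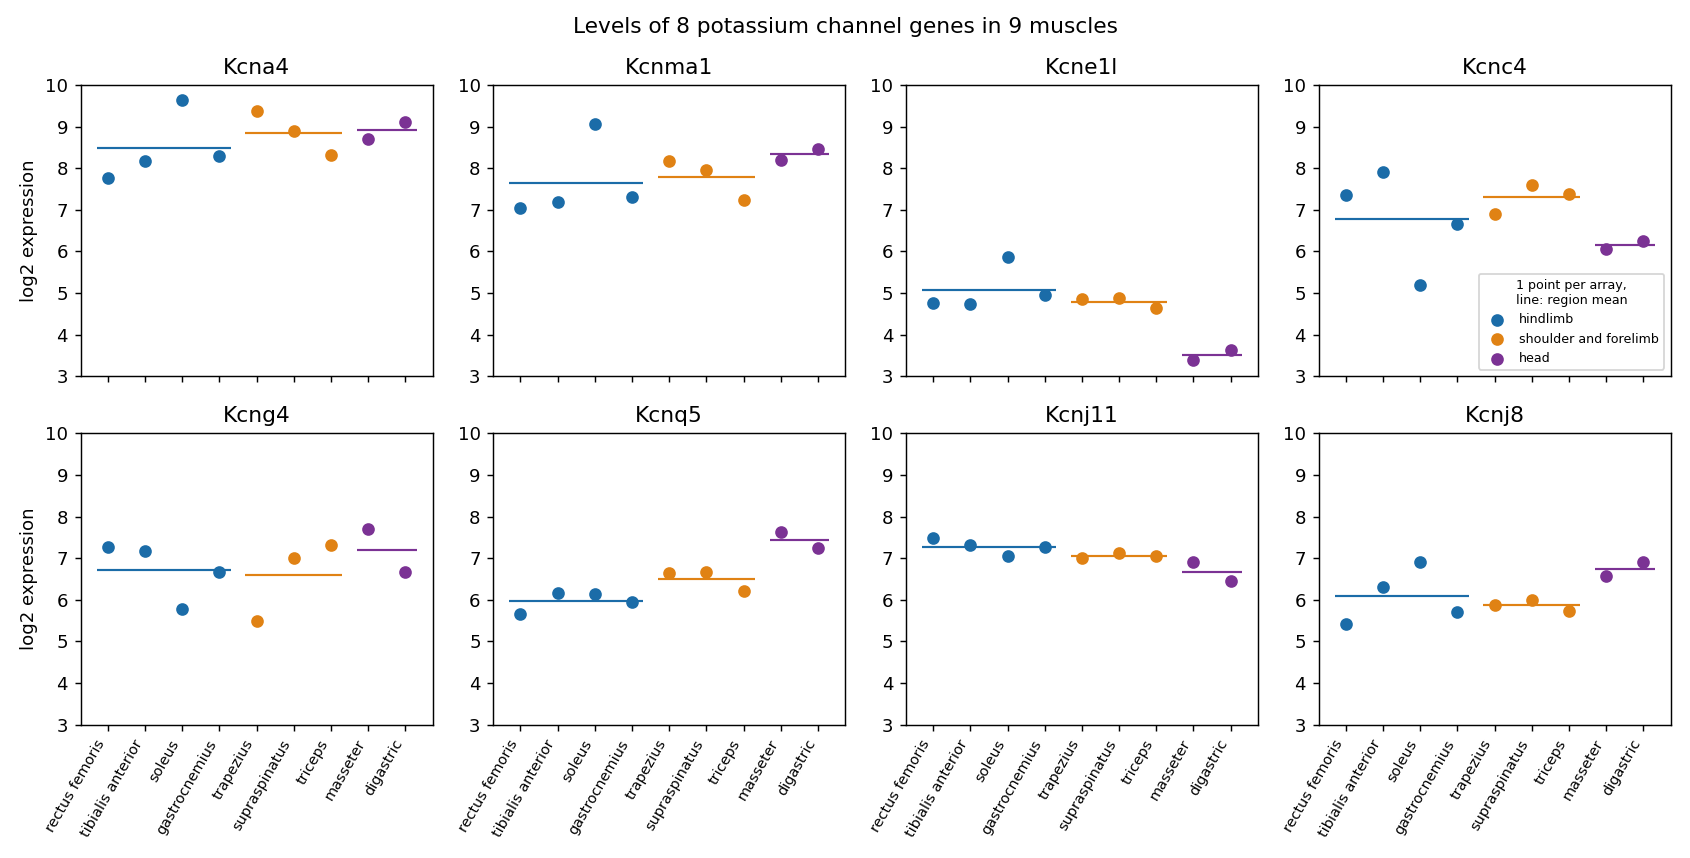
Log2 expression (y axis) of 8 potassium channel genes in 9 muscles (x axis), 1 point per array and a line at each region's mean, with hindlimb in blue, shoulder and forelimb in orange and head in purple. Soleus is the highest point for Kcna4, Kcnma1 and Kcne1l and the lowest for Kcnc4, and both head arrays are lowest for Kcne1l and highest for Kcnq5.

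The comparison of hindlimb with head muscles asked whether potassium channel genes follow body position. Kcne1l was 2.97-fold higher and Kcnq5 2.75-fold lower in hindlimb muscles, and neither passed the test over all genes. Kcnj11 lay higher and Kcnn2 lower by smaller amounts. In the limma fit of all genes, 0 of the 89 genes passed an adjusted p of 0.05 in either direction, where 2 of 22180 genes did (0.00902%). Before adjustment, 9 higher and 2 lower genes had a p under 0.05, 12.4% of the 89, against 11.9% of all genes. Of these 11 genes, 6 had a mean of at least 4, and the rest, near background, were all among the higher genes. The regions did not overlap for 20 of the 89 (22.5%), against 21.2% of all genes, so both shares were near those of all genes. The median difference was -0.08 for the 31 genes with a mean of at least 4 and -0.09 for all genes at that level. Over all 89 genes, most of them near background, it was 0.16, and it was 0.04 for all genes, against 0.08 and -0.00 when only the 6 arrays with the wider spread were taken.

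Kcne1l averaged 5.08 ± 0.54 (SD, n = 4) in hindlimb and 3.51 ± 0.17 (SD, n = 2) in head muscles. The difference was 1.57 (SE 0.29, 95% interval 0.92 to 2.22) with a limma adjusted p of 0.232. The 6 arrays with the wider spread gave 1.80. Without the soleus array the difference was 1.31 and the adjusted p 0.0453, so the call depended on that array. Because the head values are near background, the fold is an estimate and no bound.

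Kcnq5 encodes a slowly activating channel of the M-current group. It was at 5.65, 6.16, 6.14 and 5.96 in rectus femoris, tibialis anterior, soleus and gastrocnemius, at 6.65, 6.66 and 6.21 in trapezius, supraspinatus and triceps, and at 7.62 and 7.25 in masseter and digastric. The regions did not overlap, with all hindlimb arrays lowest and both head arrays highest. The hindlimb mean of 5.98 ± 0.23 (SD, n = 4) was 1.46 below the head mean of 7.44 ± 0.27 (SD, n = 2), with a 95% interval from -1.93 to -0.99 and a limma adjusted p of 0.158. The second probe set of Kcnq5 was near background, with a mean of 2.78 and a difference of -0.27. With probe sets averaged, the difference was -0.86. The 6 arrays with the wider spread gave -1.29. The list mean of salivary gland markers was also highest in the head arrays. It was 3.09 to 3.45 in hindlimb, 3.20 to 3.35 in shoulder and forelimb and 3.55 to 4.02 in head muscles. The markers did not move together, with 5 of 9 lower and 4 higher in hindlimb than in head, 6 of 9 near background and none at 0. Klk1 was at 7.28 in masseter and 0.91 in digastric, its highest and lowest arrays. Aqp5, Krt8 and Krt18, the markers with a mean of at least 4, were among those higher in hindlimb. Other lists moved between these regions too. Endothelial markers were lower in hindlimb for 9 of 10 genes, while myeloid markers were higher for 10 of 10, with list means from 4.99 to 5.51 in hindlimb and 4.69 to 4.95 in head muscles. Slow fibre genes were higher in hindlimb for 9 of 10, with list means from 4.92 to 9.86 in hindlimb and 4.45 to 4.85 in head muscles. The part of these cell and fibre types in the hindlimb minus head differences was not tested.

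Kcnj11 encodes the pore of the ATP-sensitive channel of the muscle fibre. Its levels were 7.48, 7.31, 7.05 and 7.26 in rectus femoris, tibialis anterior, soleus and gastrocnemius, 6.996, 7.14 and 7.05 in trapezius, supraspinatus and triceps, and 6.90 and 6.46 in masseter and digastric. Every hindlimb array lay above both head arrays, by a mean difference of 0.60 (95% interval 0.20 to 0.997) that did not pass (limma adjusted p = 0.376). It was 0.50 in the 6 arrays with the wider spread and 0.38 without digastric. Its regulatory partner in muscle, the sulfonylurea receptor gene Abcc9, was between 9.14 and 9.80 in all arrays. The receptor gene known from pancreatic beta cells, Abcc8, averaged 3.88.

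Kcnn2, a small-conductance calcium-activated channel gene, was at 4.50, 4.66, 4.31 and 4.54 in rectus femoris, tibialis anterior, soleus and gastrocnemius, at 4.87, 5.10 and 4.66 in trapezius, supraspinatus and triceps, and at 5.02 and 5.32 in masseter and digastric. All hindlimb arrays were below both head arrays, with a difference of -0.67 (95% interval -1.07 to -0.27, limma adjusted p = 0.36), and -0.69 in the 6 arrays with the wider spread. Kcns3, a silent subunit gene, and Kcna2 differed by 0.49 and 0.45 without passing (limma adjusted p = 0.391 and 0.401), and by 0.35 and 0.26 in the 6 arrays with the wider spread. Among genes near background, Kcnj9, a G protein-gated inward rectifier gene of neurons, was at 4.30 ± 0.19 in hindlimb (SD, n = 4) and 3.31 ± 0.18 in head muscles (SD, n = 2). Its difference of 0.99 did not pass either (limma adjusted p = 0.219), and was 0.84 in the 6 arrays.

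Inward rectifiers of resting current and vessels showed another order. Kcnj2, the main strong inward rectifier gene of the muscle fibre, was at 5.69, 6.56, 7.05 and 6.45 in rectus femoris, tibialis anterior, soleus and gastrocnemius, at 6.88, 6.54 and 5.96 in trapezius, supraspinatus and triceps, and at 7.46 and 6.93 in masseter and digastric. Rectus femoris and triceps were lowest and masseter highest. The hindlimb minus head difference was -0.75 (95% interval -1.55 to 0.04, limma adjusted p = 0.428), and -0.39 in the 6 arrays with the wider spread. Those of Kcnma1, -0.68 (95% interval -1.79 to 0.42), and Kcnc4, 0.62 (95% interval -0.67 to 1.92), had wide intervals too (limma adjusted p = 0.582 and 0.672). The Kcnma1 difference was -0.21 in the 6 arrays with the wider spread, -0.15 with averaged probe sets and -1.15 without soleus. The Kcnc4 difference was 0.39 in the 6 arrays, 0.25 without tibialis anterior and 1.15 without soleus. Kcnj12, a second strong inward rectifier gene, kept between 5.01 and 5.78.

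Kcnj8 encodes the ATP-sensitive channel pore of vascular smooth muscle and pericytes. It was at 5.43, 6.31, 6.90 and 5.70 in rectus femoris, tibialis anterior, soleus and gastrocnemius, at 5.87, 6.00 and 5.73 in trapezius, supraspinatus and triceps, and at 6.56 and 6.91 in masseter and digastric. Digastric and soleus were highest and rectus femoris lowest. All shoulder and forelimb arrays were below both head arrays, by 0.87 on average (95% interval of the difference -1.68 to -0.07, limma adjusted p = 0.719). Endothelial marker means lay between 5.83 and 6.80 in hindlimb, 6.07 and 6.27 in shoulder and forelimb and 6.64 and 6.86 in head muscles, and 10 of 10 markers were lower in shoulder and forelimb than in head. Smooth muscle and pericyte means were 5.75 to 6.07 in shoulder and forelimb and 5.94 to 6.01 in head muscles, with 6 of 9 lower. The part of vessel cells in the Kcnj8 values was not tested.

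Hindlimb was then set against shoulder and forelimb muscles. In limma 0 of the 89 genes passed, as did 1 gene of all (0.00451%). Before adjustment, 4 higher and 2 lower genes had a p under 0.05, 6.74% against 3.65% of all genes, and the regions did not overlap for 5 of the 89 (5.62%) against 4.62%. Of these 6 genes with a p under 0.05, 3 had a mean of at least 4. Kcnq5 was lower by 0.53 (95% interval of the difference -0.94 to -0.11) and Kcnh2, the rapid delayed rectifier gene of the heart, differed by 0.33 (0.02 to 0.64), each with a limma adjusted p of 1. The Kcnq5 difference was -0.19 with averaged probe sets. Kcnh2 was near the threshold, at 4.35 ± 0.17 (SD, n = 4) in hindlimb and 4.02 ± 0.05 (SD, n = 3) in shoulder and forelimb muscles. Kcnn3, a small-conductance channel gene that returns in denervated muscle, was at 4.86, 4.57, 5.57 and 4.28 in rectus femoris, tibialis anterior, soleus and gastrocnemius and at 5.50, 3.91 and 3.999 in trapezius, supraspinatus and triceps. Soleus and trapezius were its highest arrays in these 2 regions, and the 2 head values were 5.72 in masseter and 4.86 in digastric. The Kcnn3 difference of 0.35 had an interval from -0.58 to 1.28, and was 0.07 without supraspinatus, 0.10 without soleus, 0.12 without triceps and 0.87 without trapezius. Among genes with a mean of at least 4, the others with the largest differences were Kcna6 at 0.33, Kcna4 at -0.38 and Kcnc4 at -0.52, all with intervals that include 0. Without the soleus array the Kcnc4 difference became 0.01 and that of Kcna4 -0.77, and without trapezius that of Kcna4 was -0.13. Among genes near background, Kcnj9 differed by 0.68 (95% interval 0.34 to 1.03, limma adjusted p = 1).

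Between shoulder and forelimb and head muscles, 0 of the 89 genes and 0 of all genes passed in limma (0%). Before adjustment, 3 higher and 3 lower genes had a p under 0.05, 6.74% against 6.92% of all genes, and 25 of the 89 did not overlap (28.1%) against 29.9%. Of these 6 genes with a p under 0.05, 3 had a mean of at least 4. This comparison shares its head arrays with the first and its shoulder and forelimb arrays with the second. Kcne1l averaged 4.79 ± 0.13 (SD, n = 3) in shoulder and forelimb and 3.51 ± 0.17 (SD, n = 2) in head muscles, a difference of 1.28 (95% interval 0.60 to 1.96). Kcnq5 was lower by 0.93 (95% interval of the difference -1.43 to -0.44). Both had a limma adjusted p of 0.681. Kcnc4 differed by 1.14 (95% interval -0.22 to 2.51), with all 3 shoulder and forelimb arrays above both head arrays. Kcnn3 differed by -0.82 (95% interval -1.93 to 0.29), and by -0.39 without masseter and -1.34 without trapezius. Kcnj11 differed by 0.38 (95% interval -0.04 to 0.80), and by 0.16 without digastric and 0.60 without masseter.

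**Figure D3:**
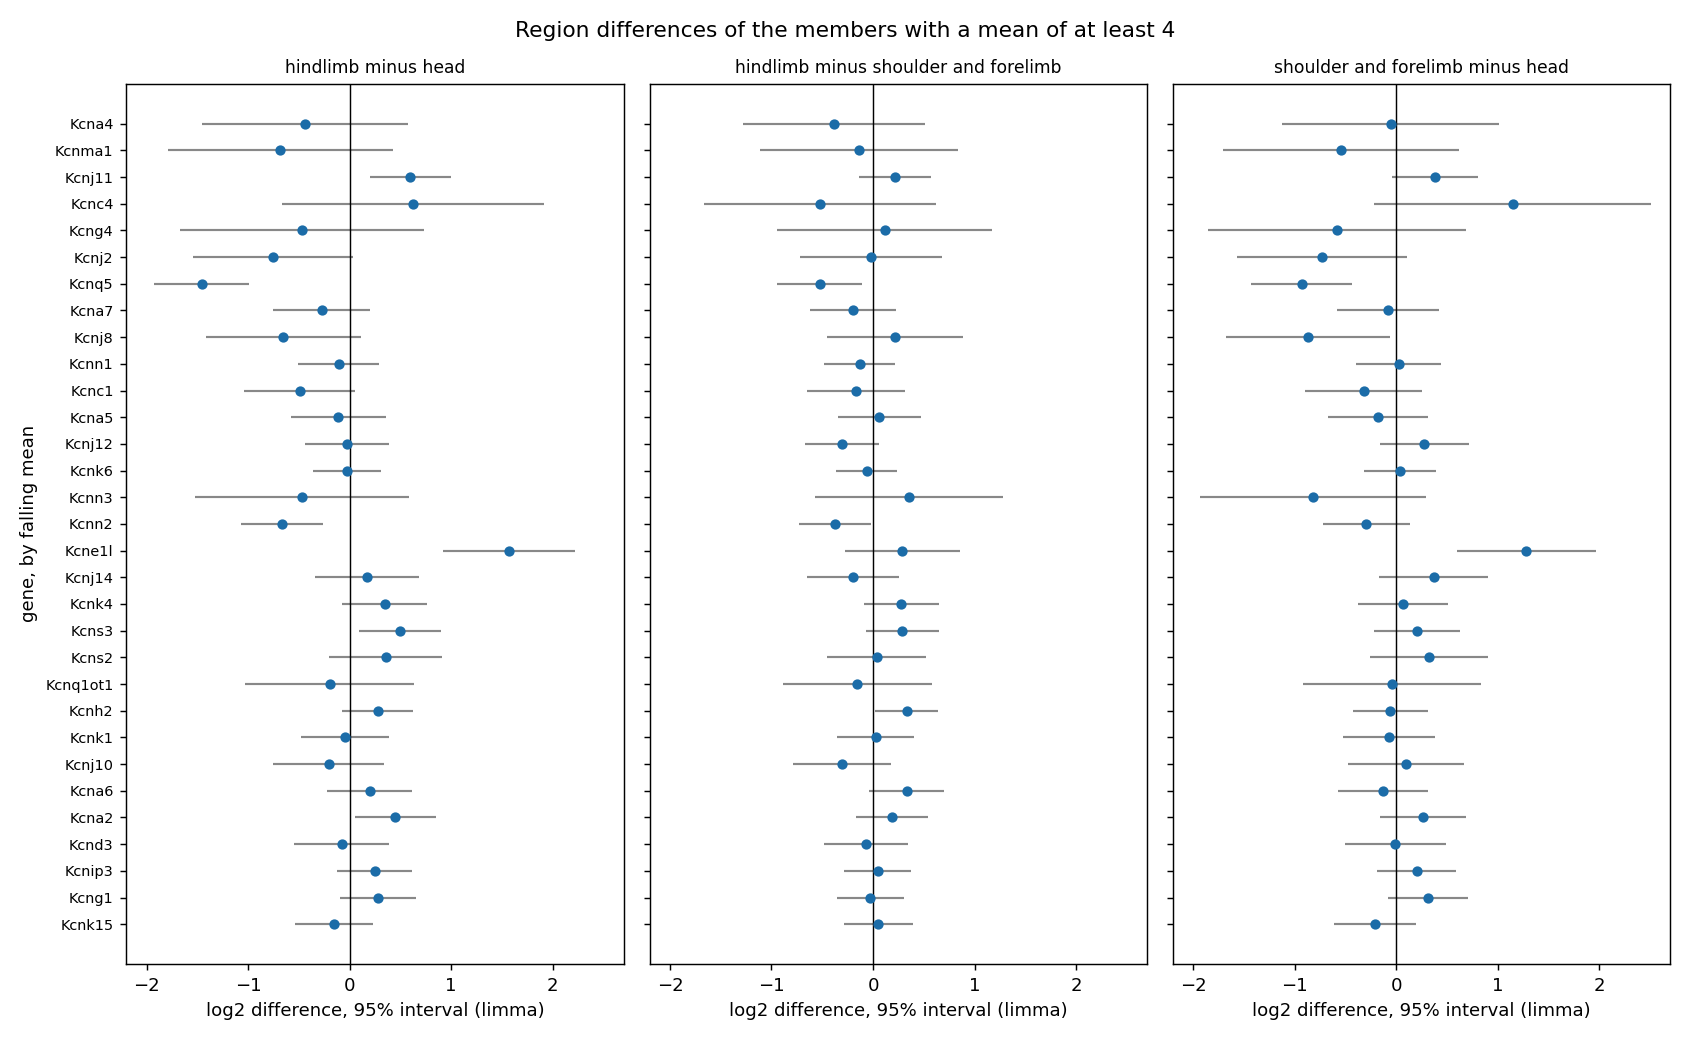
Log2 difference between regions (x axis) with its 95% interval from limma, for the 31 genes with a mean of at least 4 (y axis, by falling mean), 1 panel per comparison. Kcne1l lies to the right and Kcnq5 to the left in both comparisons with head muscles, and most intervals include 0.

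The other genes above 5 varied less. Kcna7, a voltage-gated channel gene of heart and skeletal muscle, was between 5.74 in rectus femoris and 6.602 in soleus. Kcnn1 was between 5.74 and 6.15 and Kcna5, a delayed rectifier gene, between 5.08 and 5.73. From 4 to 5 stood Kcnj14, highest in triceps at 5.26 against 4.21 to 4.68 in the 8 other arrays, the mechanosensitive leak channel gene Kcnk4 (4.14 to 4.91), Kcns2, Kcnk1, Kcnj10, Kcna6, Kcnd3, Kcnip3, Kcng1 and Kcnk15. Kcnq1ot1 was between 3.51 in rectus femoris and 4.77 in masseter. In the 3 arrays of narrower spread, rectus femoris, gastrocnemius and triceps, genes near background tended to read high, most clearly in the first 2. Of these 58 genes, 39 had their highest value there, with 16 in rectus femoris, 14 in gastrocnemius and 9 in triceps. Of the genes at 4 or above, 11 of 31 did. The median of the 58 genes was 3.36, 3.28 and 3.10 in the 3 arrays and between 2.97 and 3.06 in the other 6, so triceps lay close to those. No such count was made over all genes near background, so this is not shown to be particular to channel genes.

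**Figure D4:**
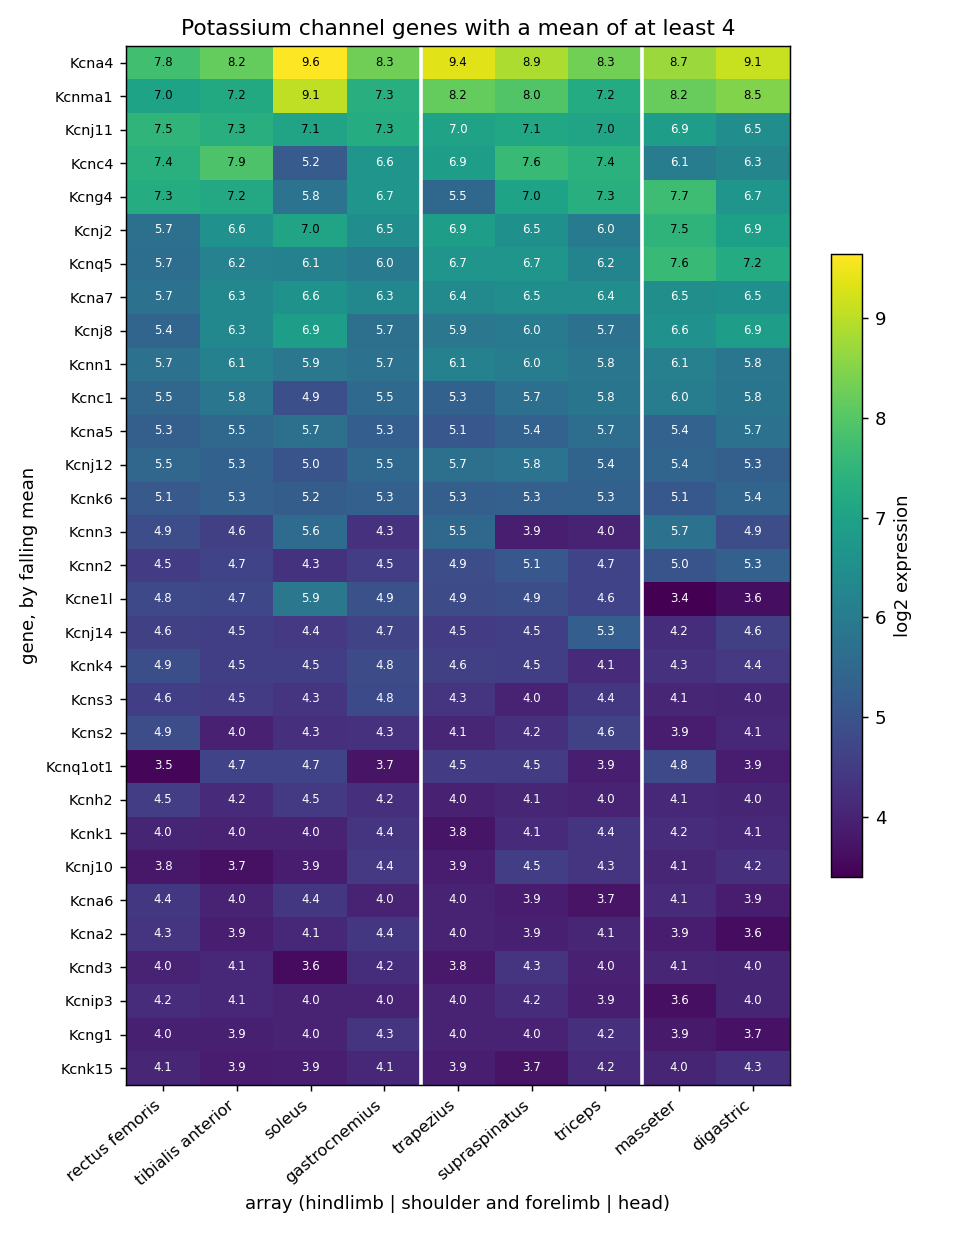
Log2 expression of the 31 genes with a mean of at least 4 (y axis, by falling mean) in 9 arrays (x axis, hindlimb, then shoulder and forelimb, then head, parted by white lines), with each value printed and coloured from dark (low) to yellow (high). Kcna4 and Kcnma1 are brightest in soleus, and Kcnc4 and Kcng4 are dark there.

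A list of 30 genes that work with these channels in excitability was set beside them, and 24 were measured. In limma 0 of the 24 passed in any comparison. With p under 0.05 before adjustment, 4 were higher and 1 was lower in hindlimb than in head muscles, 20.8% of the 24 against 11.9% of all genes, and the 4 higher genes all had means under 4. In hindlimb against shoulder and forelimb muscles 0 were higher and 2 lower, 8.33% against 3.65%. In shoulder and forelimb against head muscles 1 was higher and 1 lower, 8.33% against 6.92%. The lower one was Atp1b4 in both comparisons with head muscles, a muscle protein gene of the sodium pump beta subunit family, with 4.64 ± 0.58 in hindlimb (SD, n = 4), 5.41 ± 0.17 in shoulder and forelimb (SD, n = 3) and 6.53 ± 0.20 in head muscles (SD, n = 2). Its hindlimb minus head difference was -1.89 (95% interval -2.58 to -1.19, limma adjusted p = 0.206). Soleus stood apart for 4 of the 24 by the rule used above, or 16.7% against 1.92% of all genes, Lrrc52, Atp1b1, Atp1b2 and the sodium channel subunit gene Scn3b. The sodium pump subunit genes went opposite ways, with Atp1b1 at 10.47 in soleus against 7.41 to 10.18 in the 8 other arrays and Atp1b2 at 7.08 against 8.12 to 10.04. Clcn1, the chloride channel gene of the resting fibre, was at 7.58 in soleus and between 7.88 and 8.64 elsewhere.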

How the data were processed

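The authors hybridised cDNA from muscle RNA to whole-transcript GeneChip arrays, per the labels' protocols. The deposited values are log2 expression per probe set, and the submitters' processing notes name GCRMA, with no version number. The scale was read from the values. No detection calls were used, the array's genome build was not given, and precision is limited by there being 9 arrays.

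Of 41345 probe sets, 23521 had 1 gene symbol. The one with the highest mean was used per gene. All 22180 genes entered 1 fit on 9 arrays with a mean per region in limma 3.58.1 (R 4.3.3, lmFit and eBayes), leaving 6 residual degrees of freedom (10.4 once moderated). Tests were two-sided, with Benjamini-Hochberg adjustment over all genes. Every adjusted p is from limma.

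In simulated data for 22180 genes with 200 changed by a log2 change of 2, the fit recovered 91.1% in hindlimb minus head, 94.6% in hindlimb minus shoulder and forelimb and 88.2% in shoulder and forelimb minus head. For a change of 1 it recovered 32.2%, 51.8% and 23.6%. At a change of 2, false calls averaged 9.8, 10.3 and 7.6 genes per round in the same order. The changed genes were drawn at random from all genes. With 200 genes changed, the Benjamini-Hochberg threshold was easier to reach than in the data, where 2, 1 and 0 genes passed in the same order. The recovered shares therefore do not say how often a change of that size would be found in the data. No share was computed for genes of wide spread such as Kcnc4 (SE 0.58 in hindlimb minus head), so these shares do not cover them.

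The genes, lists and alternatives were chosen with earlier results of these data known. Named were genes with a mean of at least 4, the 3 nearest below, and per comparison the 3 largest differences each way among genes with a mean of at least 4, with partner genes that stood apart in soleus or are known partners. Kcnq1, Kcne3, Kcnmb1, Kcnd3os, Lrrc26, Lrrc55, Atp1b4, Klk1, Aqp5, Krt8 and Krt18 are named beside these for their roles or levels or as values that moved. That choice was made with values known. Alternatives were other normalizations, a filter on dim genes, averaged probe sets, a variance trend, fewer arrays, the value range as a term and each array left out.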

Additional observations from a re-analysis of the deposited data

Results flagged for a closer look

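Among the 4 hindlimb arrays, a single array far from the other 3 was found for 2 of the 31 genes with a mean of at least 4, where chance gives about 1 in 20. This count is near that given by chance, and the share over all genes was not computed. Kcnma1 was at 9.05 in soleus, against 7.03 to 7.32 in the other 3 hindlimb muscles. The gap was 0.858 of the whole range, and the same soleus value had already been picked out by the soleus rule. Kcnk1, a 2-pore leak channel gene near the background threshold, was at 4.36 in gastrocnemius, against 4.01 to 4.04 in the other 3, with a gap of 0.897 of the range. Gastrocnemius is among the arrays with a narrower spread of values.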

How the results depend on the processing

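The number of genes passing was 0 in each direction and comparison under every alternative run, with 1 exception. When each array was left out in turn, the count higher in hindlimb than in head muscles ran from 0 to 1, the 1 being Kcne1l without soleus (hindlimb minus head 1.31, adjusted p = 0.0453). The hindlimb minus shoulder and forelimb difference of Kcnc4, which was -0.52, ran from -0.90 to 0.01 with 1 array left out and changed sign to 0.0103 without soleus, an array removed from a group of 4. The other 304 of 306 recomputed differences of named genes kept their sign and stayed on the same side of the threshold. The number of genes with a range of at least 2 log2 units ran from 1 (without soleus) to 4 with 1 array left out. It was 5 with each array centred on its median, where Kcnq5 was added. Under quantile normalization, with averaged probe sets and in the 6 arrays with the wider spread it was 3. Kcnma1, whose range was 2.02, dropped out in each of these. At a background threshold of 5, 14 genes remained above it, against 31 at 4. Averaging probe sets reduced the soleus difference to 0.36 for Kcna4 and 0.67 for Kcnma1, since their second probe sets lie near background, and the Kcnq5 differences to -0.86 in hindlimb minus head and -0.19 in hindlimb minus shoulder and forelimb. Of 18 region differences of named genes, 11 moved by over 1.5 times under at least 1 alternative. With 1 array per muscle and no detection calls, differences near background cannot be read as presence or absence. No paired analysis was possible because the labels do not say which animal gave the RNA of each array.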
